A study of Mus musculus with 3 samples.

Results

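The 5 microRNAs described here, mmu-miR-483-3p, mmu-miR-483-5p, mmu-miR-296-5p, mmu-miR-296-3p and mmu-miR-298-5p (written below without the prefix for mouse), come from 3 hairpin genes in imprinted regions of the mouse genome. They were chosen by the locus of their gene and by name, with their detection and spot signals on these arrays already known, from 1881 mouse miRNAs on an Agilent microarray, where 16 of 4415 probes and 150 of 56430 spots per array belonged to them. Each array held 30 spots for every one of the 5. The serum came from C57BL/6NJcl males aged 8 weeks, for which the labels name no treatment or altered allele, and 200 µL went into each extraction. The miRNeasy serum/plasma advanced kit and the mirVana PARIS kit, 2 commercial RNA purification kits, were used by their makers' protocols. For the third extraction, serum was mixed with 700 µL of QIAzol Lysis Reagent, and RNA was taken from the aqueous layer with the exoRNeasy midi kit, so this array is called exoRNeasy after its columns although its starting material was whole serum. Each array received labelled RNA made from 1.8 ng of the extract, and there was 1 array per kit, so errors below are standard errors (SE) between spots of a probe, no p-value can be given, and the spread between mice or extractions was not measured. The number of mice, and whether one pool of serum served all kits, are not given in the labels.

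Genomic imprinting is the expression of a gene from only the copy inherited from the mother or only the one from the father. Igf2, a fetal growth factor gene expressed mainly from the paternal copy, hosts Mir483 in an intron, and miR-483-3p is known to be abundant in tumours with raised IGF2, such as Wilms tumour. Gnas encodes the stimulatory G protein alpha subunit and lies in a cluster of imprinted transcripts that run in both directions. Mir296 and Mir298 lie beside this cluster, near the antisense transcript Gnasas1 (also called Nespas). A miRNA hairpin is cut into a duplex whose strands are named 5p and 3p after their arm, and usually one strand is kept in the silencing complex while the other is degraded. The kept strand finds its target messenger RNAs mainly through the seed, bases 2 to 8.

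The mature sequences are shown because the probes read these strands separately and because their base composition differs sharply. All 5 were found in RefSeq's GRCm38.p6 annotation, all on the minus strand, with the seed in capitals:
miR-483-3p: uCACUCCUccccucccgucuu
miR-483-5p: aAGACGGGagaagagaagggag
miR-296-5p: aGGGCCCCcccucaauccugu
miR-296-3p: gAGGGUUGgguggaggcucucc
miR-298-5p: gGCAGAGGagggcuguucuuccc

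The strands from Mir483 lie at chr7:142654932-142654952 (3p) and chr7:142654968-142654989 (5p), within the span of Igf2. Those from Mir296 lie at chr2:174267093-174267113 (5p) and chr2:174267058-174267079 (3p), and miR-298-5p lies at chr2:174267553-174267575. Mir296 and Mir298 are neighbours with 378 bases between their hairpins, and the next annotated genes on the Mir298 side are Gnasas1 and Gnas. The hairpins are shown to place both arms, in capitals, on either side of the loop:
Mir483: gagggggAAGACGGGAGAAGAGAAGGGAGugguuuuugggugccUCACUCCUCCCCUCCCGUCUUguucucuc
Mir296: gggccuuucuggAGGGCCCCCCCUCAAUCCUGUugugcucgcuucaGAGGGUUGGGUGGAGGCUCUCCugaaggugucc

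The arms of Mir483 share the longest complementary run of the 3 hairpins, 10 bases, against 5 in Mir296 and 4 in Mir298. The Mir483 strands are near opposites in composition. miR-483-5p holds 95.5% purines, and no other of 1608 array miRNAs matched to RefSeq is as purine-rich. Its partner miR-483-3p holds 90.5% pyrimidines, a share that 4 others reach. In miR-296-5p a run of 7 C begins inside the seed, and 1 other matched array miRNA, miR-1249-3p, has a C run as long. The GC content of the 5 strands was 61.9%, 54.5%, 66.7%, 68.2% and 65.2% in the order listed, all above the median of 52.2% over the matched miRNAs. No matched array miRNA shares a seed with any of them. The longest run of bases in common with another array miRNA was 11, between miR-298-5p and miR-7047-5p, and miR-483-3p shared 10 with miR-484.

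The 3 arrays lay on 1 slide. They had 67 detected miRNAs in common. Detection means that over 0.5 of the spots of at least 1 probe were flagged well above background by the scanner software. The serum label was checked against marker miRNAs. Red blood cell markers were detected for 4, 4 and 5 of 5 in the same order and liver markers for 2 of 3 on each array. Both myeloid and platelet markers and 2 of 3 muscle markers were detected on each array, while pancreas markers were 0, 0 and 1 of 3 and brain markers 0, 0 and 1 of 3.

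Each array detected 1 of the 5 miRNAs, beside 4.41% (exoRNeasy), 3.77% (miRNeasy advanced) and 7.12% (mirVana PARIS array) of all miRNAs. The exoRNeasy array detected miR-483-3p, with both of its probes. The miRNeasy advanced and mirVana PARIS arrays detected miR-296-5p, the first with 1 of 2 probes and the second with both. No array detected miR-483-5p, miR-296-3p or miR-298-5p. The members were grouped with these arrays already examined, so detection and level are given as descriptions.

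**Figure D1:**
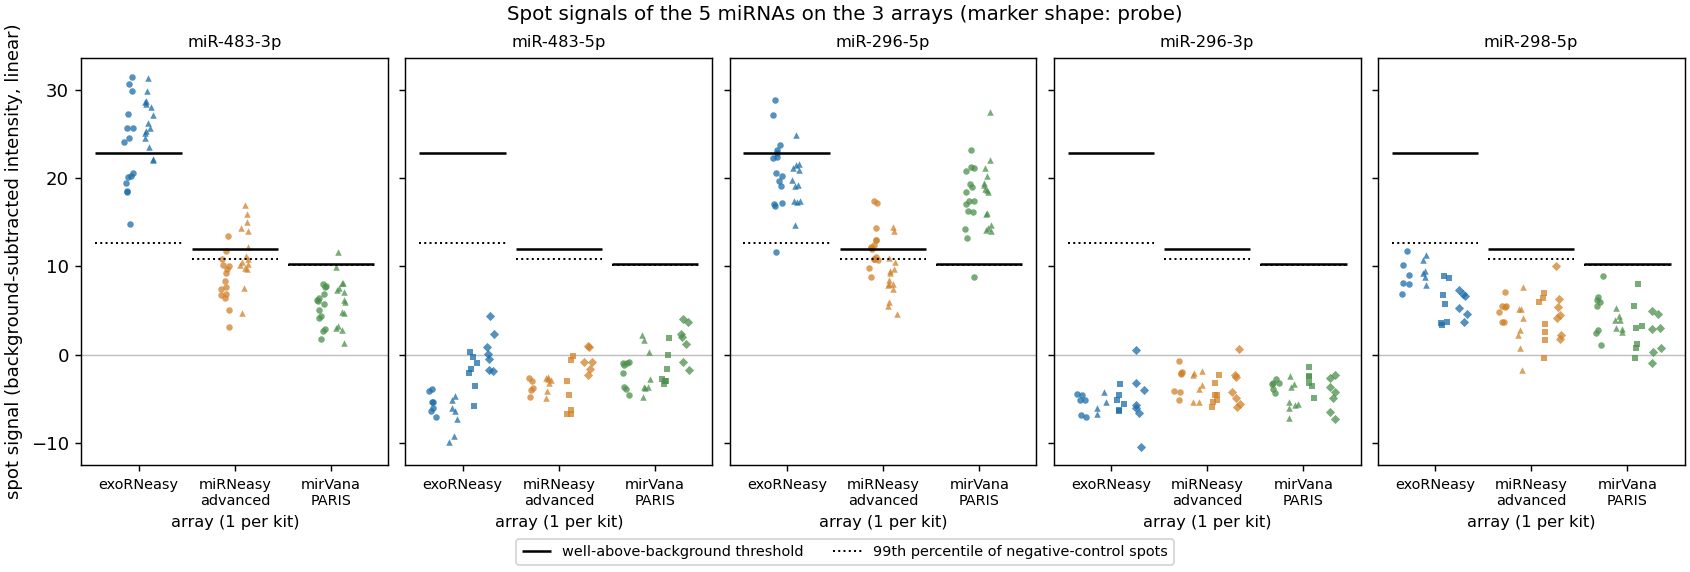
Background-subtracted spot signals (vertical axis, linear intensity units) of the 5 miRNAs on the 3 arrays (horizontal axis), 1 point per spot kept and marker shapes for probes. Solid bars mark the signal from which spots were flagged well above background (22.9, 12.0 and 10.3 from left to right) and dotted bars the 99th percentile of negative-control spots. All exoRNeasy spots of miR-483-3p lie above the dotted bar, and most spots of miR-483-5p and miR-296-3p lie below zero on each array.

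All 5 were dim, and the flag's threshold was not the same on each array. The lowest flagged spot signal was 22.9 with exoRNeasy, 12.0 with miRNeasy advanced and 10.3 with the mirVana PARIS kit, at 5.0 times the additive error that the file headers give for each array (4.57, 2.40 and 2.05). A spot on the exoRNeasy array thus needed 2.23 times the signal that it needed on the mirVana PARIS array. The array's negative-control spots differed less, with a 99th percentile of 12.7, 10.9 and 10.2. Signals below are in the scanner's linear units after background subtraction, and may be negative.

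At the Igf2 locus, miR-483-3p was detected on the exoRNeasy array alone, and its unscaled signal was highest there. Most miRNAs detected on both the exoRNeasy and miRNeasy advanced arrays, 63 of 67, were also higher unscaled on the first, with a median log2 difference of 0.96. The 2 probes of miR-483-3p lay 0.29 and 0.56 above that median. Against mirVana PARIS, 21 of 80 were higher, with a median of -0.64, and the probes lay 2.93 and 2.84 above it. Probe A_54_P3592 had exoRNeasy spots from 22.0 to 31.3 with a median of 26.2. With miRNeasy advanced the same probe ran from 4.76 to 17.0 with a median of 10.8. With mirVana PARIS it ran from 1.32 to 11.6 with a median of 6.20. The lowest exoRNeasy spot thus exceeded the highest spot of either other array, with 15 spots on each. The second probe, A_54_P3591, gave the same order, with medians of 24.1, 8.32 and 5.95 and exoRNeasy spots (14.8 to 31.5) that overlapped with neither the miRNeasy advanced spots (3.12 to 13.5) nor the mirVana PARIS spots (1.77 to 8.01). Over both probes, 30 of 30 exoRNeasy spots exceeded that array's 99th negative-control percentile, against 9 of 30 with miRNeasy advanced and 1 of 29 with mirVana PARIS. How many probes of other miRNAs had spots that did not overlap between arrays was not counted, so this separation does not set miR-483-3p apart.

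Because miR-483-3p failed the background criterion with the mirVana PARIS kit, its difference is given as a bound, set by the lowest signal among detected probes or the probe's own level, whichever was higher. Before any scaling, the exoRNeasy level of miR-483-3p was at least 2.99-fold higher than the mirVana PARIS level. After each array was scaled to the 75th percentile of the 106 probes detected on all 3, it was at least 5.85-fold higher. The second probe gave bounds of 2.60-fold and 5.10-fold. The measured mean log2 levels of the first probe were 4.72 ± 0.04 (SE, 15 spots) and 2.43 ± 0.22 (SE, 15 spots), and their scaled difference was 3.26 ± 0.22. Under 13 other settings this difference ran from 1.16 to 4.54. Keeping outlier spots, a floor of 0.5 and the deposited value table left it at 3.26. The 4.54 came from subtraction of the negative-control mean, a setting chosen after seeing the data. Since miR-483-3p was detected on the exoRNeasy and not the mirVana PARIS array, the kept sign is no measure of stability. The difference was 1.16 with the normexp background and 1.33 with no background correction. Both are under the log2 bounds of 1.58 (unscaled) and 2.55 (scaled), so the bounds hold only for the processing they are given with. Over the 80 miRNAs detected on both arrays, which include no member, 22 (27.5%) were past 2-fold and 3 spot errors. All 3 miRNAs detected on the exoRNeasy and not the mirVana PARIS array passed 2-fold by this bound (100%), so passing it does not set miR-483-3p apart from them.

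Against the miRNeasy advanced array the bound for miR-483-3p was 2.16-fold without scaling and 1.21-fold with it. The second probe gave 1.88-fold and 1.06-fold. Neither of the detected members entered the comparison of these arrays over 67 miRNAs detected on both, in which 3 (4.48%) were past 2-fold and 3 spot errors. Of 16 miRNAs detected on the exoRNeasy and not the miRNeasy advanced array, 4 (25%) had a scaled bound past 2-fold, and miR-483-3p was not among them. The measured log2 level on the miRNeasy advanced array was 3.47 ± 0.12 (SE, 15 spots), and the scaled difference from the exoRNeasy array was 0.41 ± 0.13. The normexp background and no background correction turned this difference to -0.20 and -0.14. For miRNeasy advanced against mirVana PARIS, miR-483-3p was below detection on both sides and no fold is given. The scanner's own gene flag, a rule met by 7.12% (exoRNeasy), 5.16% (miRNeasy advanced) and 8.56% (mirVana PARIS) of all miRNAs, called it detected on the miRNeasy advanced array too.

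The other strand of the hairpin, miR-483-5p, gave no signal above the controls. Its median spot read -3.96 with exoRNeasy, -2.87 with miRNeasy advanced and -1.35 with mirVana PARIS. Below zero were 23 of 28, 23 of 25 and 21 of 30 spots, and not 1 spot on any array exceeded the negative-control median of 5.33, 4.86 or 4.82. The brightest spot of its 4 probes read 4.41, on the exoRNeasy array. Median signals over all miRNA spots were also below zero, at -2.89, -1.58 and -1.50. The signals of the strands cannot be set against each other, because each probe has its own brightness.

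**Figure D2:**
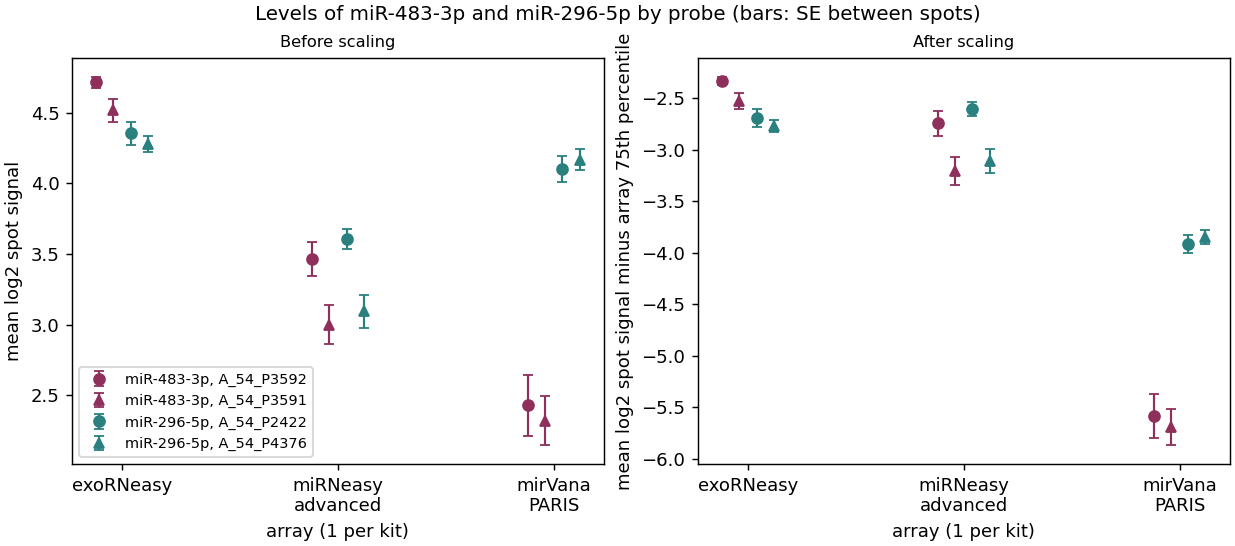
Mean log2 spot signal of both probes of miR-483-3p and miR-296-5p on the 3 arrays, before scaling (left) and after subtraction of the array's 75th percentile (right), with bars for the SE between spots. The mirVana PARIS level of miR-296-5p lies above the miRNeasy advanced level on the left and below it on the right, while miR-483-3p is lowest on the mirVana PARIS array in both panels.

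At the Gnas locus, miR-296-5p was detected on the miRNeasy advanced and mirVana PARIS arrays, yet its unscaled signal was highest where it was not detected. The unscaled log2 margin of exoRNeasy over mirVana PARIS was small, at 0.25 ± 0.12 (SE) for probe A_54_P2422 and 0.11 ± 0.09 for A_54_P4376. Over miRNeasy advanced the margins were 0.75 and 1.18, on either side of the median of 0.96 over miRNAs detected on both arrays. Probe A_54_P2422 had exoRNeasy spots from 11.6 to 28.9 with a median of 20.6. Its miRNeasy advanced spots ran from 8.79 to 17.4 with a median of 12.1. Its mirVana PARIS spots ran from 8.76 to 23.2 with a median of 17.4. The 3 ranges overlapped. Spots flagged well above background were 4, 9 and 14 of 15 in the same order. The second probe, A_54_P4376, had medians of 19.5, 8.43 and 18.7, and flagged spots numbered 1 of 12, 2 of 15 and 15 of 15. For that probe the exoRNeasy and miRNeasy advanced spots did not overlap (14.7 to 24.9 against 4.67 to 14.5), while the exoRNeasy and mirVana PARIS spots did (14.7 to 24.9 against 14.0 to 27.5). How common such separation is among all probes was not counted.

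Over both probes of miR-296-5p, 26 of 27 exoRNeasy spots exceeded the 99th negative-control percentile of that array, beside 13 of 30 with miRNeasy advanced and 29 of 30 with mirVana PARIS. Set against the mirVana PARIS array's flagging threshold, 27 of 27 exoRNeasy spots and 29 of 30 mirVana PARIS spots passed. Set against the exoRNeasy array's threshold, 5 of 27 exoRNeasy spots and 2 of 30 mirVana PARIS spots passed. miR-296-5p was not the only miRNA in this position. Of 54 miRNAs detected on the mirVana PARIS and not the exoRNeasy array, 8 had a higher unscaled level on the exoRNeasy array, and of 4 detected on the miRNeasy advanced and not the exoRNeasy array, 3 did. miR-296-5p and miR-1249-3p were in both sets. By the scanner's own gene flag miR-296-5p was detected on all 3 arrays.

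The comparison of the miRNeasy advanced with the mirVana PARIS array was the only one in which a member was detected on both sides. The mean log2 level of miR-296-5p was 3.61 ± 0.07 (SE, 15 spots) with miRNeasy advanced and 4.10 ± 0.09 (SE, 15 spots) with mirVana PARIS, which is 1.41-fold lower on the first without scaling. After scaling, the same levels were 2.48-fold higher on the miRNeasy advanced array, a log2 difference of 1.31 ± 0.11. This was past 2-fold and 3 spot errors, as were 12 of 71 miRNAs detected on both arrays (16.9%), 10 of them higher (14.1%). The direction therefore rests on the scaling. Over the 71 miRNAs the median log2 difference was -1.62 without scaling and 0.18 with it. miR-296-5p lay 1.13 above the median in both cases, which is so by construction because scaling shifts all miRNAs of an array alike. That distance was 0.55 for the second probe. The second probe gave 0.73 ± 0.14 with scaling, under 2-fold, and -1.07 without, and this probe was not detected on the miRNeasy advanced array.

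For the exoRNeasy array only a bound could be formed for miR-296-5p. With the mirVana PARIS array as the brighter side the bound was under 1-fold with and without scaling, so no fold is given. None of the 54 miRNAs (0%) detected on the mirVana PARIS and not the exoRNeasy array had a bound past 2-fold in that direction. With the miRNeasy advanced array as the brighter side the scaled bound was 1.01-fold and the unscaled one under 1-fold, and 0 of 4 such miRNAs (0%) were past 2-fold. The measured log2 level on the exoRNeasy array was 4.35 ± 0.08 (SE, 15 spots), which before scaling was above both other arrays. After scaling it was -2.69, beside -2.61 on the miRNeasy advanced and -3.92 on the mirVana PARIS array. The exoRNeasy and miRNeasy advanced levels of this probe, A_54_P2422, then differed by less than the spot error (-0.09 ± 0.11). The second probe, A_54_P4376, was detected on neither of these arrays and gave a scaled difference of 0.35 ± 0.13, with the opposite sign.

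**Figure D3:**
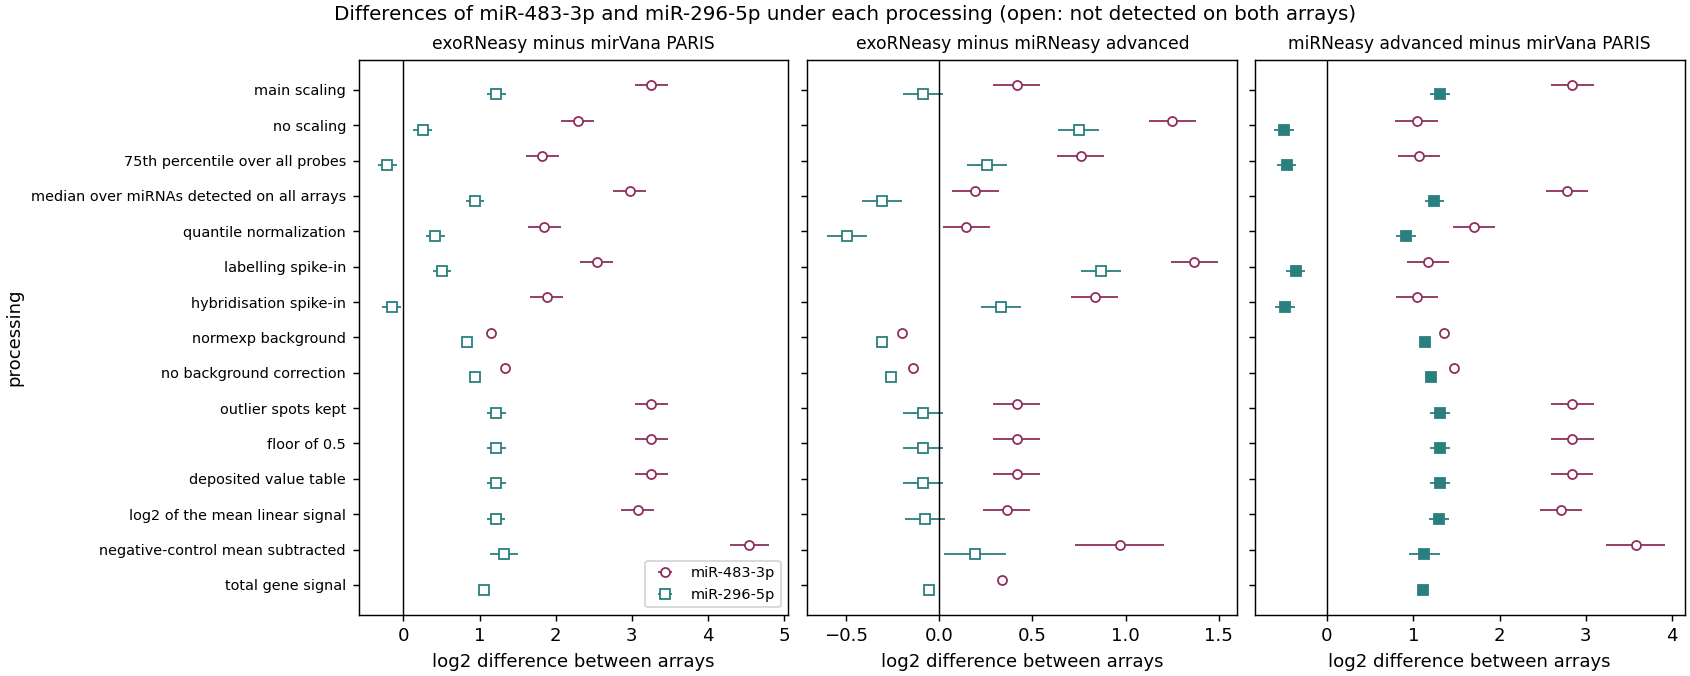
Log2 difference (horizontal axis) of miR-483-3p (circles) and miR-296-5p (squares) between each pair of arrays under each way of processing (vertical axis), with bars for the SE between spots where there is one. Open markers are differences of measured levels in which the miRNA was not detected on both arrays, where size has no meaning beyond the bounds given in the text; the filled squares, miR-296-5p in miRNeasy advanced minus mirVana PARIS, lie on both sides of zero, from -0.50 to 1.31.

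The partner strand miR-296-3p gave no signal above the controls. Its spots had medians of -5.34, -3.99 and -3.65 on the exoRNeasy, miRNeasy advanced and mirVana PARIS arrays. Below zero were 22 of 23, 27 of 28 and 27 of 27 spots, and none exceeded the negative-control median on any array.

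The spots of miR-298-5p, from the neighbouring hairpin, lay among the negative controls. They ran from 3.32 to 11.7 with a median of 7.89 on the exoRNeasy array. With miRNeasy advanced they ran from -1.69 to 10.1 around a median of 4.50, and with mirVana PARIS from -0.97 to 8.92 around 3.05. Above the negative-control median were 19 of 25, 13 of 29 and 9 of 29 spots, and above the 99th percentile 0 on every array. Over all 4 probes the ranges of the arrays overlapped. In 1 of the 4, A_54_P2433, the exoRNeasy spots (7.89 to 11.3) lay above those of miRNeasy advanced (-1.69 to 7.63) and mirVana PARIS (2.62 to 5.34). Here too the share of all probes that separate in this way was not counted. A laxer scanner flag, positive and significant signal, was set for 21, 22 and 22 of the miR-298-5p spots. It was also set for 59.6%, 82.2% and 87.2% of negative-control spots. With no probe well above background on any array, no fold is given for miR-298-5p.

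Of 5 other strands from these and other imprinted loci, none was detected on any array: the H19 products miR-675-5p and miR-675-3p, the Mest products miR-335-5p and miR-335-3p, and miR-298-3p. On the exoRNeasy array, 1 of these 5 had a median spot above the 99th negative-control percentile, which held for 8.93% of all miRNAs there, and on the miRNeasy advanced and mirVana PARIS arrays none did, beside 4.15% and 7.12% of all. It was miR-298-3p, whose brighter probe had spots from 6.86 to 18.5 with a median of 13.1 on the exoRNeasy array, against medians of 3.77 and 1.87 on the miRNeasy advanced and mirVana PARIS arrays. The strand is shown because it is the partner of miR-298-5p:
miR-298-3p: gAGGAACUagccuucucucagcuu

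From the Dlk1-Dio3 cluster, a large imprinted miRNA cluster expressed from the maternal copy, 0 of 97 strands were detected on any array. Of these, miR-485-3p and miR-487b-5p had a median spot above the negative-control percentile, both on the exoRNeasy array. These are 2 of 97, beside the 8.93% of all miRNAs given above.

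Few miRNAs shared the members' pattern of detection. Besides miR-483-3p, 2 miRNAs were detected on the exoRNeasy array alone, and likeness was measured as the Euclidean distance between unscaled log2 levels over the 3 arrays, each miRNA centred on its own mean. miR-1894-5p lay at a distance of 1.68, with geometric mean signals of 22.4, 1.89 and 1.49 on the exoRNeasy, miRNeasy advanced and mirVana PARIS arrays. miR-429-3p lay at 1.74, with 26.5, 3.27 and 8.19. The signals of miR-483-3p were 26.3, 11.1 and 5.39. All 3 were below detection on the miRNeasy advanced and mirVana PARIS arrays, so the distances rest partly on such levels and only describe these arrays.

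Besides miR-296-5p, 3 miRNAs were detected on the miRNeasy advanced and mirVana PARIS arrays and not on the exoRNeasy array. The closest was miR-1249-3p, at a distance of 0.54 and with signals of 20.0, 12.8 and 11.1 in the same order, beside 20.4, 12.2 and 17.2 for miR-296-5p. miR-3470a followed at 0.85 (20.5, 12.5 and 35.9) and miR-1897-5p at 1.15 (10.0, 13.3 and 24.8). Both miR-296-5p, by the small margin given above, and miR-1249-3p were highest on the exoRNeasy array before scaling. By contrast, miR-3470a and miR-1897-5p were highest on the mirVana PARIS array. The nearest miRNA of each member is printed, with its longest run of C in capitals:
miR-1894-5p: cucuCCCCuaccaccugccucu
miR-1249-3p: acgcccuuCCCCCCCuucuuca

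Each of these holds 86.4% pyrimidines, and how many array miRNAs reach that share was not counted. miR-1894-5p has a longest run of 7 bases in common with miR-483-3p, and neither shares the seed of its member. A C run as long as the 4 of miR-483-3p is held by 119 other matched array miRNAs (7.41%). miR-1249-3p is the miRNA named above that matches the 7 C of miR-296-5p, with which it has a run of 8 bases in common. miR-6415 and miR-7045-3p share as long a run with miR-296-5p. miR-429-3p holds 54.5% pyrimidines and has a run of 4 in common with miR-483-3p. miR-3470a and miR-1897-5p were not matched to RefSeq, so their composition is not known here. These are descriptions of 3 arrays, and how far base composition moves with the kit was not tested.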

How the data were processed

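Mouse miRNAs were measured on 3 Agilent 1-colour arrays, 1 per kit and all on 1 slide. Linear spot intensity was deposited as scanner output, background-subtracted and detrended with Feature Extraction 11.5.1.1 and not normalized between arrays, per the file headers (11.5 per the submitters' processing notes). The array design names mm9, per the file headers. Intensities in the deposited value table matched these to within 0.50%, uncentred, with column medians of -2.77 (exoRNeasy), -1.51 (miRNeasy advanced) and -1.44 (mirVana PARIS).

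Outlier spots were left out (1515, 1474 and 1427 in that order), and no spot was saturated. Spot signals were floored at 1, log2-transformed, averaged per probe and reduced by the array's 75th percentile over 106 probes detected on all arrays (7.05, 6.21 and 8.02). Each miRNA was represented by the probe with detection on the most arrays, ties going to the brightest. With 1 array per kit no test was made. The number of arrays limits the precision. The 2-fold cut alone was checked on simulated data, with all signals positive and the same detection cut on every array. Neither the condition of 3 spot errors nor the 75th-percentile scaling was part of that check. Simulated arrays were instead centred on probes known to be unchanged, and the spread between spots was a set value, not that of the members.

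The 5 members were named throughout, with up to 3 miRNAs most alike to each detected member and lists of imprinted-region and marker miRNAs. Members and lists were chosen with earlier results of these data known, and the 8 and 3 miRNAs brighter where not detected were counted after their values were seen. Alternatives covered scaling, background, outliers, floor, probe, detection and the value table. Python 3.11.15, numpy 2.4.6, pandas 2.3.3, R 4.3.3 and limma 3.58.1 were used.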

Additional observations from a re-analysis of the deposited data

How the results depend on the processing

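Scaling turned directions of miR-296-5p. Its miRNeasy advanced minus mirVana PARIS difference, detected on both arrays and 1.31 in log2, was -0.50 without scaling, -0.47 with the 75th percentile over all probes, -0.36 with the labelling spike-ins and -0.49 with the hybridisation spike-ins. Under these 4 and under quantile normalization (0.91) the count of members past 2-fold fell from 1 to 0. Its measured difference of exoRNeasy, where it was not detected, from mirVana PARIS (1.22) was -0.21 with the percentile over all probes and -0.15 with the hybridisation spike-ins, and that from miRNeasy advanced (-0.09) was 0.75 without scaling and 0.87 with the labelling spike-ins. Members detected rose from 1 to 2 on the exoRNeasy array with any flagged spot, the scanner's gene flag, the negative-control percentile or the mirVana PARIS threshold, while the count over all 1881 miRNAs rose from 83 to between 114 and 223. They were 2 on the miRNeasy advanced array with any flagged spot, the scanner's gene flag or the mirVana PARIS threshold (82 to 100 of all miRNAs, from 71), and 0 with every probe required, over 0.75 of the spots or the exoRNeasy threshold (41 to 64). On the mirVana PARIS array they were 2 with any flagged spot (172 of all miRNAs) and 0 with the exoRNeasy threshold (91). The negative-control percentile, both shared thresholds, the log2 of the mean signal and subtraction of the negative-control mean were chosen after seeing the data. For miR-483-3p, not detected on 2 arrays, the size of a difference under other settings is not a measure of stability. No paired analysis was possible because each kit had 1 array.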
